A study of Arabidopsis thaliana with 27 samples.

Results

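The comparison described here sets root tips with the auxin output switched on against root tips with it switched off, 90 min after induction. It rests on 6 of the 27 libraries of the series, 3 of pG1090::XVE ≫ ΔMP (hereafter ΔMP) and 3 of pG1090::XVE ≫ AXR3-1 (AXR3-1), each lettered A, B and C and chosen by genotype, treatment and time alone. Seedlings of *Arabidopsis thaliana* were 5 d old when they were given medium with 2.5 μM estradiol (poured over the plants in the study's methods, while the labels speak of a transfer), and RNA was taken from pooled root tips. The other groups used beside them were the mock (solvent alone, 90 min) of each line, Col-0 without a transgene in the mock and after 90 and 180 min of estradiol, and both lines after 180 min of estradiol, with 3 libraries each. Both lines carry the estradiol-activated XVE driver behind the G1090 promoter, which is active in most tissues, so the levels of the induced genes are not those of any one cell type. The study's methods speak of biological replicates for its experiments in general, and the replicate tag in the labels is the same for the letters A, B and C of a group. Whether the letters mark separate cultures was not clear from these, and the p-values given below measure the spread between these libraries, which may be technical.

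Auxin acts in the nucleus by bringing Aux/IAA repressors to TIR1/AFB receptors, which marks the repressors for breakdown and frees ARF transcription factors to activate their targets. AXR3-1 is a stabilized form of IAA17/AXR3, a repressor that auxin no longer removes, and ΔMP is a form of ARF5/MONOPTEROS (MP) that repressors no longer bind. Many of the genes that ARFs activate encode Aux/IAA repressors, GH3 enzymes that attach amino acids to auxin, and SAUR proteins, so that the family levels serve as readouts of the pathway. In the root, auxin slows cell elongation, promotes root hairs, and feeds into the gibberellin (GA), ethylene and cell wall pathways.

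The 6 libraries held 16641484 to 34272503 assigned read pairs, with a median of 31683812 in ΔMP and 16755419 in AXR3-1. No library stood apart from its group, the median correlation of each with its own group being 0.9907 to 0.9948. Transcript levels are given as TPM (a share of all transcripts, scaled for length), and differences as log2 fold changes of ΔMP over AXR3-1 with the standard error. A gene counted as called where edgeR's quasi-likelihood test gave an adjusted p (Benjamini-Hochberg) of at most 0.05 and the difference reached 1 on the log2 scale in either direction. "Rose", "fell" and "higher in" a line stand for the adjusted p alone. The markers listed for root tissues were present in the libraries of both lines: the 6 genes of the stem cell niche and meristem summed to 82.6 to 85.1 TPM in ΔMP and 86.4 to 93.1 TPM in AXR3-1, just apart, and the 7 endodermis genes to 1024 to 1111 and 998.1 to 1209 TPM, with overlap. Of the 7 endodermis genes 0 passed the adjusted p in edgeR, DESeq2 or limma, and 0 had an unadjusted p under 0.05 in edgeR. In bulk RNA fewer cells of a type and less RNA per cell cannot be told apart.

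The transgenes were each present in their own line. MP (AT1G19850, chromosome 1, 6886669 to 6891404) was at 909.9, 898.2 and 975.6 TPM in the ΔMP libraries and at 9.74, 10.2 and 9.41 TPM in those of AXR3-1, a log2 difference of 6.56 ± 0.07 (SE, edgeR adjusted p = 8.9e-36). AXR3 (AT1G04250, chromosome 1, 1136078 to 1138663) was at 163.3, 151.1 and 163.0 TPM in ΔMP and at 1152, 1220 and 1184 TPM in AXR3-1, a difference of −2.89 ± 0.05 (adjusted p = 1.1e-28). Without estradiol the difference did not pass in either gene (adjusted p = 0.54 for MP and 0.19 for AXR3), and reads of a transgene cannot be told from those of its native gene.

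At 90 min, 321 of the 19530 genes tested (1.64%) were called, 189 of them higher in ΔMP (0.968%) and 132 higher in AXR3-1 (0.676%). The median size of the difference was 1.42 on the log2 scale among the former and 1.44 among the latter. All 3 libraries of one line lay beyond all 3 of the other in 187 of the 189 and in 116 of the 132, where 15.2% and 11.4% of all genes tested were separated in these directions. Since the contrast holds whatever the lines differ in without estradiol, the difference between the changes of the lines from their own mock (the induced difference) was tested too, as an interaction term. It called 214 genes (1.1%), 116 of them higher in ΔMP (0.594%) and 98 in AXR3-1 (0.502%), and at the adjusted p alone 425 (2.18%) and 557 (2.85%) passed in these directions. Of the 321 genes called between the estradiol groups, 98 of 189 and 75 of 132 passed the adjusted p in the same direction in the induced difference.

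For these 98 and 75 genes the line that had moved was looked up. With each line set against its own mock, ΔMP had 250 genes that rose (1.28%) and 537 that fell (2.75%). AXR3-1 had 512 (2.62%) and 630 (3.23%). Of the 98 genes higher in ΔMP, 23 rose in ΔMP alone, 24 fell in AXR3-1 alone, 44 did both, and 7 did neither at the adjusted p. Of the 75 genes higher in AXR3-1, 15 fell in ΔMP alone, 26 rose in AXR3-1 alone, 29 did both and 5 did neither. These genes were chosen on the same libraries, so the split describes them and tests nothing. A change that Col-0 also made from its mock was not taken out of the moves of a line. Mean Col-0 levels went from 0.333 TPM in the mock to 0.962 TPM after estradiol in GA2OX8 and from 20.0 to 27.7 TPM in IDL1. In DGR1 they were 109.3 and 109.1 TPM. The median change of the 98 was 0.57 in ΔMP and −0.83 in AXR3-1, and that of the 75 was −0.74 and 0.75.

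**Figure D1:**
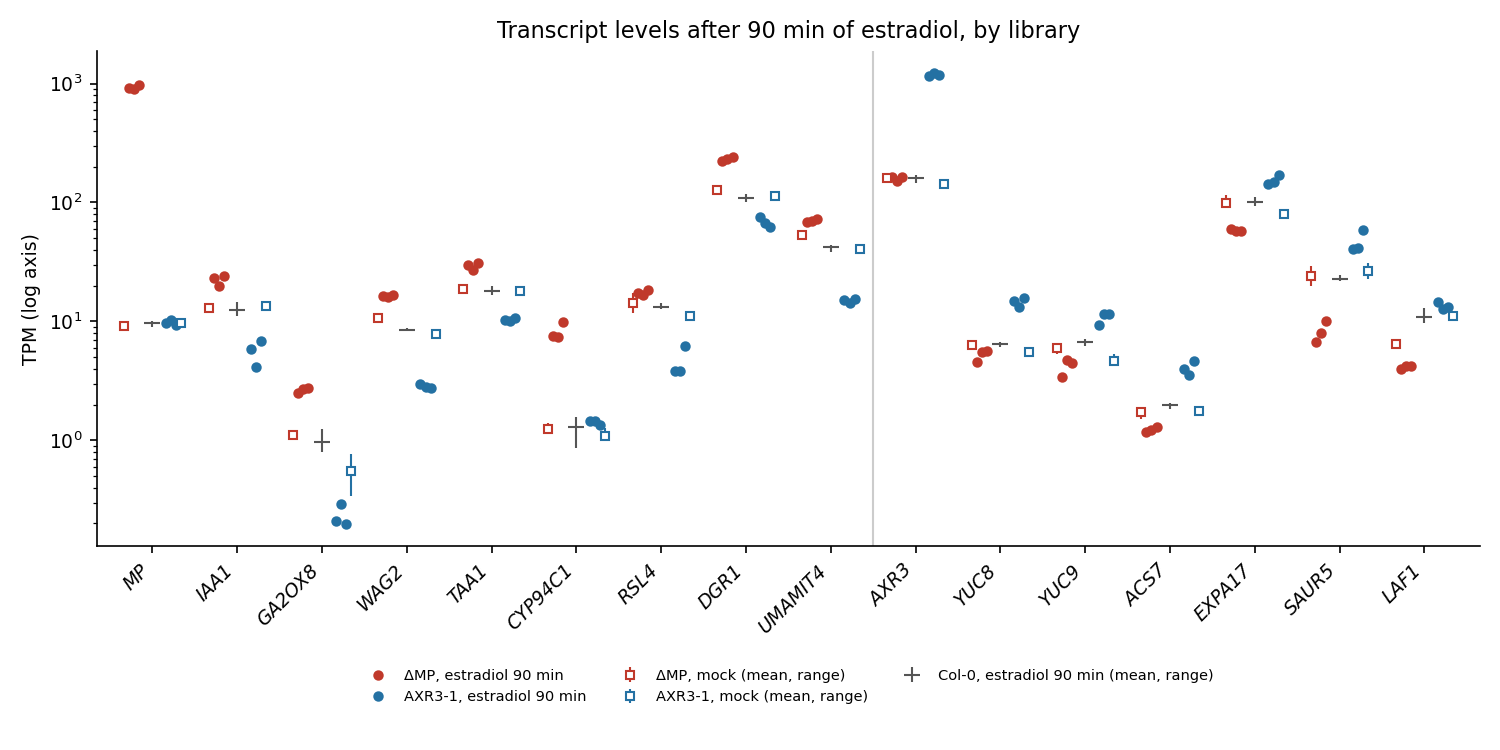
TPM on a log axis of 16 genes in each ΔMP (red) and AXR3-1 (blue) library after 90 min of estradiol, with the mean and range of the mock of each line (open squares) and of Col-0 after estradiol (grey). The genes left of the line were higher in ΔMP and those right of it higher in AXR3-1. The libraries of the lines do not overlap in any of the 16, which was a condition for naming all but MP, AXR3, TAA1 and SAUR5. Of all genes tested, 15.2% were separated with ΔMP above and 11.4% with AXR3-1 above. In 8 of the 14 induced genes named as higher in ΔMP both lines had moved from their own mock.

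The Aux/IAA repressor genes differed early and mostly in one direction. Of 27 tested, 12 were higher in ΔMP and 2 in AXR3-1, with a median difference of 0.20, where 6.73% and 5.67% of all genes passed the adjusted p in these directions and the median was −0.003. In the induced difference 7 and 1 passed, the 1 being AXR3 itself, where 2.18% and 2.85% of all genes did. IAA1 (AT4G14560) was at 23.2, 19.8 and 24.0 TPM in ΔMP and at 5.90, 4.14 and 6.79 TPM in AXR3-1, with no overlap, and Col-0 stood between them at a mean of 12.6 TPM. The difference was 1.92 ± 0.15 (adjusted p = 1.13e-11), and against their own mocks ΔMP had risen by 0.78 and AXR3-1 had a change of −1.21. IAA2, at 55.9 to 62.6 TPM against 24.0 to 26.3 TPM, differed by 1.17 ± 0.09 (adjusted p = 5.56e-12).

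IAA16 had moved in AXR3-1 and not past the test in ΔMP. It was at 313.6, 322.1 and 340.5 TPM in ΔMP and at 160.4, 172.0 and 179.4 TPM in AXR3-1, and differed by 0.94 ± 0.05 (adjusted p = 1.55e-16). Its change from the mock was −0.77 in AXR3-1 (adjusted p = 1.34e-13) and 0.11 in ΔMP (adjusted p = 0.22). IAA3, IAA4, IAA11 and IAA13 were higher in ΔMP by 0.51 to 0.76, each with an induced difference past the adjusted p. Apart from AXR3 itself, IAA28 was the family member higher in AXR3-1, at 248.4 to 275.1 against 221.8 to 227.1 TPM, a difference of −0.24 ± 0.05 (adjusted p = 0.00104), with no induced difference past the test (adjusted p = 0.19). IAA10, IAA12 and IAA19, higher in ΔMP by 0.28 to 0.46, failed the adjusted p under some alternatives.

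Of 8 GH3 genes 6 passed the filter on low counts. All 6 were higher in ΔMP, with a median of 0.67, and all 6 passed in the induced difference, where 6.73% and 2.18% of all genes did so. GH3.3 (AT2G23170) was at 1.62, 1.46 and 1.81 TPM in ΔMP and at 0.190, 0.166 and 0.377 TPM in AXR3-1, a difference of 2.78 ± 0.25 (adjusted p = 5.64e-10). The others differed by 0.40 (GH3.17) to 0.97 (GH3.1). In AXR3-1 6 of 6 fell from the mock, and in ΔMP 1 of 6 rose, GH3.6 by 0.30. Col-0 levels of GH3.3 (1.23 TPM) and GH3.5 (15.8 TPM) were nearer those of ΔMP than those of AXR3-1.

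Of 15 ARF genes tested, 6 were higher in ΔMP and 0 in AXR3-1, MP with its transgene among the 6. Of all genes 6.73% and 5.67% passed in these directions. ARF10 and ARF16, ARFs of the class known as repressors, were higher by 0.69 ± 0.05 (adjusted p = 1.38e-11) and 0.51 ± 0.06 (7.14e-08), and ARF19, an activator of lateral root formation, by 0.61 ± 0.07 (1.85e-08). ARF2 and ARF7 differed by 0.19 and 0.22, with no induced difference past the test (adjusted p = 0.49 and 0.76). Of the 6 TIR1/AFB receptor genes 0 passed the adjusted p in edgeR, DESeq2 or limma and 0 had an unadjusted p under 0.05 in edgeR, and their median difference was 0.0002.

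**Figure D2:**
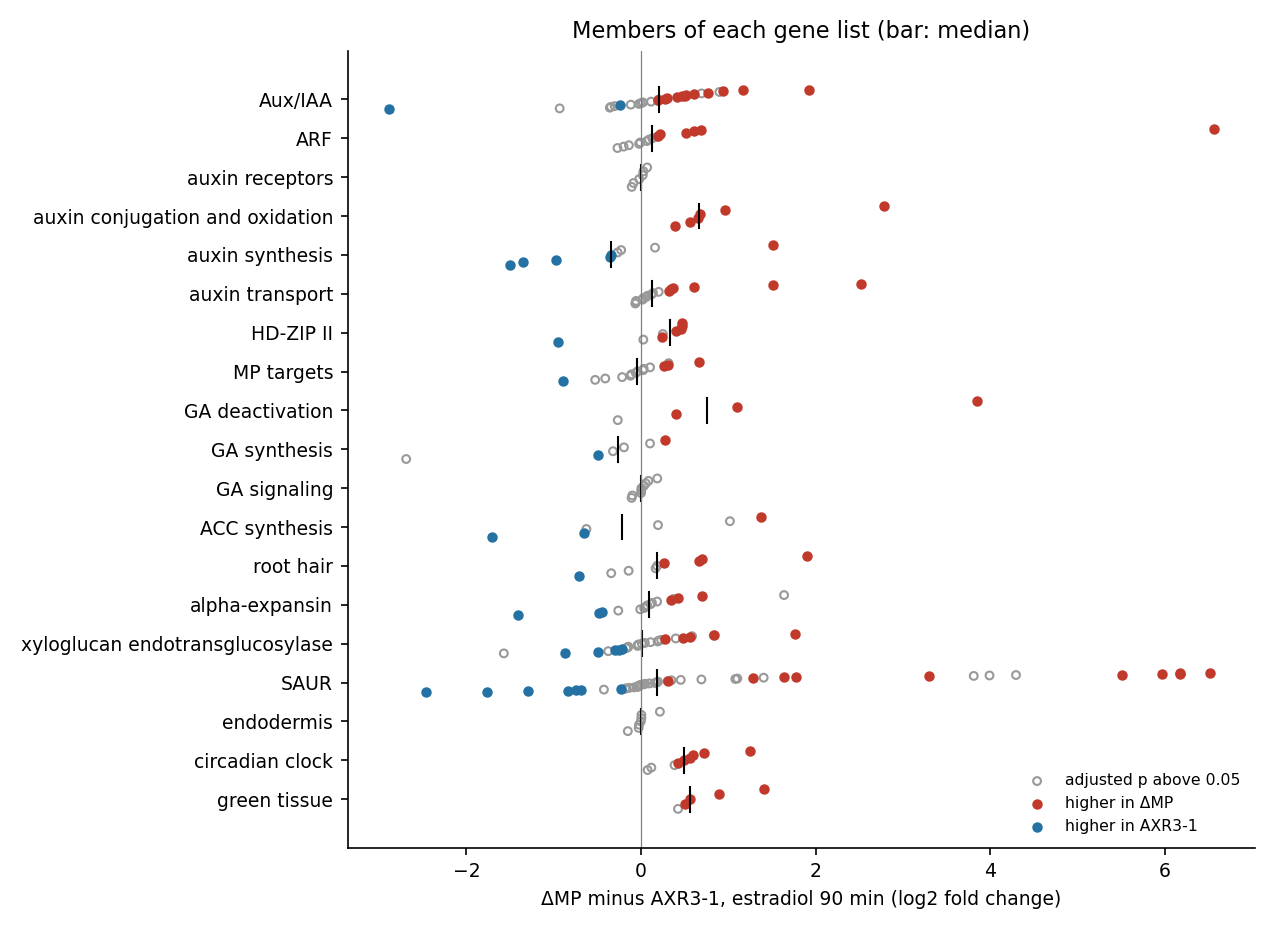
Log2 fold change of ΔMP over AXR3-1 after 90 min of estradiol for each tested member of 19 gene lists, filled where the adjusted p was at most 0.05, with the median of each list as a bar. GH3 genes (conjugation) all lie right of 0 and most synthesis genes left of it, while receptors and GA signaling lie near 0. Fitted values above 5 among the SAUR genes belong to members with no count in AXR3-1 and depend on the prior count.

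Of 9 auxin synthesis genes tested, 5 were higher in AXR3-1 and 1 in ΔMP, where 5.67% and 6.73% of all genes were, and their median was −0.35. TAA1, the aminotransferase that makes the precursor indole-3-pyruvate, was at 30.1, 26.9 and 31.1 TPM in ΔMP and at 10.4, 10.2 and 10.8 TPM in AXR3-1, a difference of 1.51 ± 0.08 (adjusted p = 4.9e-16), having risen by 0.65 in ΔMP and changed by −0.82 in AXR3-1. The 5 others were YUCCA genes, which encode the flavin monooxygenases that turn this precursor into auxin. YUC8 was at 4.58, 5.52 and 5.62 TPM in ΔMP and at 14.9, 13.2 and 15.9 TPM in AXR3-1, a difference of −1.50 ± 0.09 (adjusted p = 3.54e-14).

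YUC9, at 3.398 to 4.69 against 9.36 to 11.5 TPM, differed by −1.35 ± 0.12 (adjusted p = 2.55e-10), and YUC5 by −0.98 ± 0.15 (9.47e-06). YUC3 and YUC6 had −0.35 each. YUC8, YUC9 and YUC5 had risen in AXR3-1 by 1.40, 1.19 and 1.42 from the mock, and YUC9 had a change of −0.53 in ΔMP. The summed level of the list was 70.6 to 76.0 TPM in ΔMP and 78.9 to 85.2 TPM in AXR3-1, without overlap.

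Among 16 auxin transport genes 6 were higher in ΔMP and 0 in AXR3-1, where 6.73% and 5.67% of all genes were. Of the 6, 3 encode kinases that phosphorylate PIN auxin carriers. WAG2 (AT3G14370) was at 16.3, 16.0 and 16.7 TPM in ΔMP and at 2.97, 2.81 and 2.74 TPM in AXR3-1, a difference of 2.52 ± 0.09 (adjusted p = 3.21e-20). Part of it was there without estradiol, at 0.46 (adjusted p = 3.8e-04), and the induced difference was 2.06 (6.77e-14). WAG1 differed by 1.51 ± 0.12 (adjusted p = 1.24e-11) with 8.12 to 9.67 against 2.99 to 3.602 TPM, and PID, the third of these kinases, by 0.61 ± 0.18 (adjusted p = 0.0214, lost under 5 alternatives). The carriers PIN2 and PIN3 were higher by 0.32 and 0.34 and the importer LAX1 by 0.37 (lost under 2 alternatives), with no induced difference past the test (adjusted p from 0.059 to 0.76).

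Of 15 tested genes known to lie downstream of MP in the embryo or the vascular tissue, 3 were higher in ΔMP and 1 in AXR3-1, with a median of −0.04. Of all genes 6.73% and 5.67% passed in these directions. In the induced difference 1 (FAF3) and 0 of the 15 passed. FAF3 differed by 0.67 ± 0.11 (adjusted p = 3.64e-05), TMO6 by 0.31 and ATHB8 by 0.26, while FAF4 had −0.90 at levels of 0.781 to 1.72 TPM. TMO6 and FAF4 failed the adjusted p under 3 and 5 alternatives. Of the 8 HD-ZIP II transcription factor genes, known from shade and auxin responses, 5 were higher in ΔMP and 1 (ATHB4) in AXR3-1. HAT2 was at 39.3 to 41.1 against 28.7 to 28.8 TPM (0.46 ± 0.06, adjusted p = 1.53e-07). HAT1 and HAT2 passed the adjusted p under every alternative run, and HAT9, HAT14, HAT22 and ATHB4 failed it under 2 to 12. LBD16, which acts in lateral root initiation, was higher in ΔMP by 0.61 ± 0.15 (adjusted p = 0.00349), without an induced difference past the test (adjusted p = 0.19), and was the single gene of its list of 6 that passed. Of 8 cytokinin type-A ARR genes 1 (ARR4, 0.22, lost under 3 alternatives) was higher in ΔMP.

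GA 2-oxidases remove bioactive gibberellin, and 3 of the 4 tested were higher in ΔMP, where 6.73% of all genes were. GA2OX8 (AT4G21200, chromosome 4) was at 2.50, 2.70 and 2.78 TPM in ΔMP and at 0.208, 0.291 and 0.198 TPM in AXR3-1, with Col-0 between them at 0.962 TPM. The difference was 3.85 ± 0.25 (adjusted p = 1.61e-13). The lines already differed in the mock by 1.11 (adjusted p = 0.00552), and the induced difference was 2.735 (adjusted p = 1.3e-05), with a rise of 1.25 in ΔMP and a change of −1.48 in AXR3-1. Col-0, without a transgene, had means of 0.333 TPM in its mock and 0.962 TPM after estradiol, against 1.10 TPM in the ΔMP mock. How much of the rise in ΔMP goes beyond that in Col-0 was not tested.

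GA2OX1 was at 2.11 to 2.84 against 0.949 to 1.41 TPM (1.10 ± 0.23, adjusted p = 9.65e-04), and GA2OX6, the most abundant of the 4, at 20.8 to 25.7 against 16.6 to 18.6 TPM (0.41 ± 0.07, adjusted p = 1.5e-04). The induced difference passed for GA2OX1 (1.33, adjusted p = 0.011) and not for GA2OX6 (0.27, adjusted p = 0.16). Of 6 GA synthesis genes, GA3OX1 was higher in ΔMP by 0.27 and GA20OX2 higher in AXR3-1 (−0.50). Both failed the adjusted p under some alternatives, where it reached 0.17 and 0.55. Of the 9 GA signaling genes (receptors, DELLA repressors and their partners) 0 passed the adjusted p in edgeR, DESeq2 or limma and 1 had an unadjusted p under 0.05 in edgeR, with a median difference of 0.005.

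Auxin response elements, the short DNA words that ARFs bind, were counted in the promoter windows of the genes called. The windows ran from 250 bases before to 50 after the annotated gene start on TAIR10.1, and the words were TGTCTC and TGTCGG on either strand (GAGACA and CCGACA on the other), which do not overlap with each other. Of 27443 promoters, 14.2% held TGTCTC, 5.12% held TGTCGG and 18.7% held either. Among the 188 windows of genes called higher in ΔMP these shares were 25%, 6.91% and 30.3%, and among the 98 that also passed in the induced difference 32.7%, 9.18% and 38.8%. Among the 132 windows of genes called higher in AXR3-1 they were 16.7%, 2.27% and 18.2%, and among its 75 induced genes 13.3%, 1.33% and 14.7%. The shares describe these windows and no test was made on them, and a word in a window is not by itself a bound site.

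The windows of 4 genes higher in ΔMP, all with an induced difference past the test, are printed below to show where the words stand, with WAG2, which was also higher in ΔMP and has neither word in its window. Each line gives the 250 bases before the gene start, read 5′ to 3′ on the strand of the gene, with the words in capitals. They come from RefSeq's TAIR10.1 at chr4:11302432-11302681 (+) for GA2OX8, chr4:8360746-8360995 (+) for IAA1, chr2:11809029-11809278 (+) for CYP94C1, chr2:9866563-9866812 (-) for GH3.3 and chr3:4799613-4799862 (-) for WAG2.
GA2OX8: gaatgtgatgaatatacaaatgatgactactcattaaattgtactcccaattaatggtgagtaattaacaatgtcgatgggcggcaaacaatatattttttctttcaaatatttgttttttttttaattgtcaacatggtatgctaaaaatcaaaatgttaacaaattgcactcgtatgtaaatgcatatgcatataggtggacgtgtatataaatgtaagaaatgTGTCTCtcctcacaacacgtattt
IAA1: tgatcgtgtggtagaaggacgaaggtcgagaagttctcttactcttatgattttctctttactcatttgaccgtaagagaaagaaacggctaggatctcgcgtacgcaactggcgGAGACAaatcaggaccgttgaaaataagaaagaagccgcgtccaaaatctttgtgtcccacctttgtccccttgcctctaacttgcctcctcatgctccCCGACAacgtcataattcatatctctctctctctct
CYP94C1: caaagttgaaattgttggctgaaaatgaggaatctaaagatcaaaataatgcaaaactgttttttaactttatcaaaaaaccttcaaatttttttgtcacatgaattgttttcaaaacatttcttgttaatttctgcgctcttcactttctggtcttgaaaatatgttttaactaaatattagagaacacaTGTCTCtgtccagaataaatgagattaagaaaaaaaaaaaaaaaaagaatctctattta
GH3.3: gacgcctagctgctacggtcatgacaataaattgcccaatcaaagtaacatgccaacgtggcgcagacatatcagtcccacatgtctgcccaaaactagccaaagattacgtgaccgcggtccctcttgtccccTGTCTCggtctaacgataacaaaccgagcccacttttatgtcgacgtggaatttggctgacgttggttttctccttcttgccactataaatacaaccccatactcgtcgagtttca
WAG2: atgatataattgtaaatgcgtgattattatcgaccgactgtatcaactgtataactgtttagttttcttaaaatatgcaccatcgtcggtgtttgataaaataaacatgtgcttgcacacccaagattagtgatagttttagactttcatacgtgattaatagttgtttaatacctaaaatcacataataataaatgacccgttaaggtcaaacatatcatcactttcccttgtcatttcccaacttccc

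In GA2OX8 a single TGTCTC began 24 bases before the gene start, and in CYP94C1 one began 59 bases before it. IAA1 had TGTCTC on the other strand 135 bases before the start and TGTCGG on the other strand 36 bases before it. GH3.3 had TGTCTC 116 bases before its start. Of the 14 named induced genes higher in ΔMP other than MP, 6 held a word (HB28, GA2OX8, CYP94C1, CNGC19, IAA1 and MYB50), and of the 14 higher in AXR3-1 other than AXR3, 5 did.

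Among the named genes outside the auxin lists, those higher in ΔMP included transcription factors, hormone oxidation and cell wall genes. CYP94C1, which oxidizes and so inactivates jasmonoyl-isoleucine, was at 7.57, 7.42 and 9.83 TPM in ΔMP and at 1.45, 1.44 and 1.35 TPM in AXR3-1 (2.51 ± 0.15, adjusted p = 1.83e-14). It had moved in ΔMP, by 2.72 from the mock (adjusted p = 2.12e-14), and not past the test in AXR3-1 (0.39, adjusted p = 0.37). CNGC19, a calcium channel gene, went the same way with 1.80 in ΔMP and 0.09 in AXR3-1 (adjusted p = 0.91). HB28, a zinc finger homeodomain gene, rose by 2.67 in ΔMP, while its change of −1.31 in AXR3-1 did not pass (adjusted p = 0.43). That change rests on 13 counts in the AXR3-1 mock and 5 after estradiol, too few to tell a fall from none. HB28 was at 1.88 to 2.62 TPM against 0.0615 to 0.113 TPM, and its induced difference of 3.99 (adjusted p = 0.00284) was lost without replicate C of the AXR3-1 mock (2.95, adjusted p = 0.20).

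In RSL4 and XTH33 AXR3-1 had moved from its mock and ΔMP not past the test. RSL4, a bHLH factor that sets root hair growth, was at 17.3, 16.7 and 18.4 TPM in ΔMP and at 3.86, 3.86 and 6.19 TPM in AXR3-1 (1.90 ± 0.14, adjusted p = 5.53e-12), with a change of −1.33 in AXR3-1 and of 0.28 in ΔMP (adjusted p = 0.24). XTH33, a xyloglucan enzyme gene, had −1.47 in AXR3-1 and 0.31 in ΔMP (adjusted p = 0.44). Against Col-0 after estradiol, though, ΔMP was higher in both, by 0.37 in RSL4 (adjusted p = 0.0427) and 0.60 in XTH33 (adjusted p = 0.0252), and AXR3-1 differed by −1.53 and −1.17. In DGR1, UMAMIT4, UNE11, MDP40 and MYB50 both lines had moved, and their differences were 1.75 to 2.15. DGR1, a cell wall protein gene of the DUF642 family, was at 223.7 to 239.0 TPM against 61.9 to 75.0 TPM (1.80 ± 0.08, adjusted p = 1.6e-17), and UMAMIT4, of an amino acid transporter family, at 68.4 to 72.8 against 14.4 to 15.4 TPM (2.13 ± 0.08, adjusted p = 3.69e-20).

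The named genes higher in AXR3-1 included those of ethylene and abscisic acid synthesis. ACS7, which makes the ethylene precursor ACC, was at 1.19, 1.22 and 1.31 TPM in ΔMP and at 3.99, 3.52 and 4.63 TPM in AXR3-1 (−1.71 ± 0.15, adjusted p = 1.57e-10). Its relative ACS2 went the other way, at 4.19 to 4.41 TPM in ΔMP against 1.73 to 1.91 TPM (1.38 ± 0.13, adjusted p = 1.44e-09), and ACS5 had −0.66 ± 0.13 (2.72e-04), so that of 6 ACC synthase genes tested 1 was higher in ΔMP and 2 in AXR3-1. Of all genes 6.73% and 5.67% passed in these directions. In the induced difference ACS2 and ACS7 passed and ACS5 did not. The summed TPM of the list overlapped between the lines, at 18.9 to 20.0 in ΔMP and 19.6 to 22.4 in AXR3-1. NCED9, of abscisic acid synthesis, differed by −1.67 ± 0.16 (adjusted p = 1.99e-09) at 0.771 to 1.08 against 2.82 to 2.93 TPM.

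UGT75B2, a UDP-glucosyltransferase gene, and MAPKKK19, a kinase gene, had moved in both lines. From the mock they had −1.14 and −0.99 in ΔMP and 0.44 and 0.67 in AXR3-1, sizes that were not compared by a test. LAF1, a MYB factor of light signaling, was at 4.02 to 4.25 TPM in ΔMP and 12.7 to 14.7 TPM in AXR3-1 (−1.75 ± 0.13, adjusted p = 7.31e-12). The lines differed in LAF1 without estradiol as well (−0.82, adjusted p = 1.4e-04), and its induced difference was −0.93 (0.00118). IDL1, of the family of the abscission peptide IDA, was at 11.3 to 13.4 against 34.9 to 38.6 TPM (−1.50 ± 0.21, adjusted p = 2.1e-06), with moves of −0.79 in ΔMP and 0.90 in AXR3-1.

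Cell wall loosening genes divided between the lines. Of 16 α-expansin genes tested 3 were higher in ΔMP and 3 in AXR3-1, and of 27 xyloglucan endotransglucosylase genes 5 and 5. Of all genes, 6.73% and 5.67% passed in these directions. EXPA1, XTH16 and XTH9 failed the adjusted p under 6, 5 and 7 alternatives. Summed, the expansins were at 643.5 to 664.8 TPM in ΔMP and 729.7 to 778.7 in AXR3-1 (mocks 698.3 to 724.9 and 655.3 to 688.2). The XTH genes summed to 1330 to 1394 and 1207 to 1268 TPM (mocks 1353 to 1433 and 1189 to 1289). EXPA17 was at 60.0, 57.5 and 58.0 TPM in ΔMP and at 144.4, 147.8 and 170.5 TPM in AXR3-1 (−1.40 ± 0.09, adjusted p = 3.97e-14), with moves of −0.78 in ΔMP and 0.91 in AXR3-1 from mocks at 99.3 and 80.1 TPM. EXPA14 was higher in AXR3-1 by 0.45 ± 0.06 (adjusted p = 1.7e-06) and EXPA7, the root hair expansin, higher in ΔMP by 0.70 ± 0.08 (8.34e-08). XTH19, at 193.7 to 225.6 against 106.5 to 123.6 TPM (0.84 ± 0.07, adjusted p = 1.37e-10), was the XTH gene with the highest level among those higher in ΔMP, and XTH23 differed by −0.87 ± 0.14 (1.71e-05).

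Of the 80 SAUR genes 45 were tested, and 10 were higher in ΔMP and 7 in AXR3-1, where 6.73% and 5.67% of all genes were. In the induced difference 4 and 4 passed. The median of the list was 0.18, and it includes members without a count in AXR3-1. Setting these to their bound could not move it, since their bounds lie above it. SAUR65 and SAUR66, from a cluster on chromosome 1, and SAUR26, SAUR27 and SAUR29, neighbours on chromosome 3, had 0 counts in AXR3-1 against 24 to 49 counts over the 3 ΔMP libraries. They had 96 to 307 counts in ΔMP at 180 min and 0 to 5 in the mocks, in AXR3-1 at either time and in Col-0 at 90 min, so they were among the 45 through the line where they are high, and without them 5 were higher in ΔMP and 7 in AXR3-1. SAUR68, which stays among those higher in ΔMP, was tested under 15 of the 17 alternatives and failed the adjusted p under 6. Against a floor of 3 counts over the AXR3-1 group the 5 genes without a count were at least 5.44-fold (SAUR27) to 11.1-fold (SAUR66) higher in ΔMP. SAUR66 was at 1.545, 2.095 and 1.542 TPM in ΔMP and at 0 in each AXR3-1 library and in Col-0, and SAUR29 was at 2.251, 1.70 and 3.525 TPM. Of the 5, SAUR66 passed in the induced difference (adjusted p = 0.00683, and 0.11 without replicate C of the AXR3-1 mock). SAUR27 failed the adjusted p under DESeq2 and without replicate A of AXR3-1, and SAUR16, SAUR55, SAUR58, SAUR68 and SAUR78 failed it under 1 to 9 alternatives. Of the 10 and 7 genes 6 and 5 passed under every alternative run that tested them, and DESeq2 passed 14 in all. Of those 6, SAUR38 and SAUR69 were tested under all 17 alternatives of this contrast. The others, SAUR26, SAUR29, SAUR65 and SAUR66, had no count in AXR3-1 and were tested under 15 or 16.

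SAUR38 and SAUR69 were also higher in ΔMP, with counts in both lines, at 11.01 to 12.97 against 4.00 to 5.74 TPM (1.28 ± 0.15, adjusted p = 6.12e-08) and at 10.8 to 11.8 against 2.93 to 3.81 TPM (1.77 ± 0.20, adjusted p = 4.7e-08). SAUR5 was higher in AXR3-1, at 6.72, 8.01 and 10.1 TPM in ΔMP and at 40.3, 41.3 and 59.0 TPM in AXR3-1 (−2.47 ± 0.19, adjusted p = 1.13e-11), with moves of −1.54 in ΔMP and 0.64 in AXR3-1. SAUR4, its neighbour on chromosome 4, differed by −1.76 ± 0.14 (adjusted p = 4.07e-11) and SAUR37 by −0.84 ± 0.09 (6.98e-09).

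Markers of root tissues differed in a few members, where 6.73% of all genes were higher in ΔMP and 5.67% in AXR3-1. With 4 to 9 genes in a list, 1 gene says little of the list, and no list was tested as a set. Of 9 root hair genes 4 were higher in ΔMP (RSL4, EXPA7, RSL2 and RHD6) and 1 in AXR3-1 (RSL1, −0.71 ± 0.13, adjusted p = 2.44e-04), while the summed TPM of the list overlapped, at 217.9 to 269.1 in ΔMP and 199.3 to 264.3 in AXR3-1. RHD6, at 0.26, failed the adjusted p under 3 alternatives. Of 4 root cap genes BRN1 was higher in AXR3-1, at 21.2 to 23.5 against 11.9 to 12.9 TPM (−0.88 ± 0.07, adjusted p = 1.16e-10), and BRN2 higher in ΔMP by 0.40 (lost under 4 alternatives). SCR, of the stem cell niche, had −0.19 ± 0.05 (adjusted p = 0.0173), lost without replicate B of ΔMP or replicate A of AXR3-1 (adjusted p up to 0.12). Of 6 genes of the touch and wounding response 1 (TCH3) was higher in ΔMP and 1 (TCH2) in AXR3-1. They failed the adjusted p under 3 and 8 alternatives, and both under limma. Of 6 low oxygen genes 2 (ADH1, at 1.81 to 2.35 against 0.605 to 1.11 TPM, and PDC1) were higher in ΔMP. In the induced difference 0 of the low oxygen genes passed, and 1 was already higher in ΔMP in the mock.

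Some of the difference between the estradiol groups was there without estradiol. In the mock the lines differed in 62 called genes (0.317%), 37 higher in ΔMP (0.189%) and 25 higher in AXR3-1 (0.128%), in libraries that the estradiol contrast does not use, and 39 were called without replicate C of the AXR3-1 mock. At the adjusted p alone 404 (2.07%) and 205 (1.05%) passed. Of these, 22 and 5 were called in the same direction at 90 min of estradiol, which is 59.46% and 20.0% of the mock calls and 11.64% and 3.788% of the calls at 90 min. MRD1 (AT1G53480) was at 42.8, 42.1 and 43.9 TPM in ΔMP and at 0 in each AXR3-1 library, at least 415-fold higher against the floor of 3 counts over the group, and the means were 38.5 TPM in the ΔMP mock, 0.291 TPM in the AXR3-1 mock and 0.0562 TPM in Col-0.

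COR27, a cold-regulated repressor tied to the clock, was at 38.0 to 47.6 TPM in ΔMP and 9.38 to 11.6 TPM in AXR3-1 (2.03 ± 0.10, adjusted p = 7.43e-16), with 2.34 in the mock and an induced difference of −0.30 (adjusted p = 0.38). Of 9 circadian clock genes 6 were higher in ΔMP both after estradiol and in the mock, where 6.73% and 2.07% of all genes were. PRR5 alone passed in the induced difference (0.28, adjusted p = 0.00976). Their summed TPM was 830.6 to 874.4 in ΔMP, 525.7 to 640.4 in AXR3-1 and 547.5 to 562.5 in Col-0. Of 5 green tissue genes 4 were higher in ΔMP after estradiol and 3 in the mock, with sums of 110.0 to 114.0, 57.6 to 64.4 and 62.2 to 71.1 TPM in the same order and 0 of 5 induced differences past the adjusted p in edgeR, DESeq2 or limma (3 at an unadjusted p under 0.05 in edgeR). CAB1, among these, shares 48.1% of its sequence words with other genes. The part of these lists in the other differences was not tested.

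HSP70, a heat shock chaperone gene, was at 26.2 to 31.2 TPM in ΔMP against 10.6 to 11.6 TPM (1.40 ± 0.10, adjusted p = 1.77e-12), with 1.66 in the mock and levels of 57.4 and 17.9 TPM there. HSFA2 and HSFA6B, heat response factor genes that were singled out after their values were seen, were called higher in ΔMP in both, by 1.17 and 1.33 after estradiol and by 2.17 and 1.12 in the mock. In HSFA2 the difference was smaller after estradiol than in the mock (induced difference −1.001, adjusted p = 0.033), while those of HSFA6B and HSP70 did not pass (0.21 and −0.26, adjusted p = 0.70 and 0.39). Among the 5 called higher in AXR3-1 in both, chosen here in the same way, AT4G33980 was at 1.15 to 1.67 TPM in ΔMP and 9.03 to 14.7 TPM in AXR3-1 (−3.19 ± 0.21), with −3.98 in the mock.

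**Figure D3:**
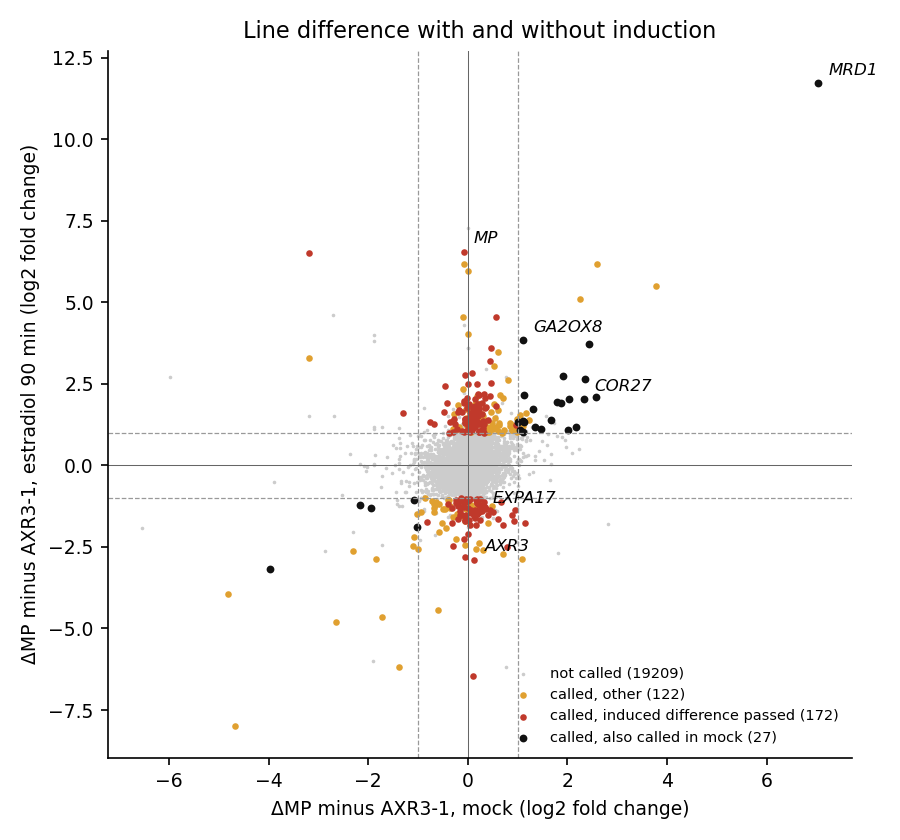
Log2 fold change of ΔMP over AXR3-1 after 90 min of estradiol (vertical) against the same in the mock (horizontal), 1 point per gene tested, with dashed lines at a log2 fold change of 1 in size. The 27 black points, COR27 and MRD1 among them, were called in both, and the 172 red points were called after estradiol, not in the mock, and passed in the induced difference.

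At 180 min of estradiol, in other libraries, the contrast between the lines had widened. It called 1551 genes (7.94%), 857 higher in ΔMP (4.39%) and 694 higher in AXR3-1 (3.55%). Of the 189 and 132 genes called at 90 min, 143 (75.66%) and 88 (66.67%) were called in the same direction at 180 min, and they made up 16.69% and 12.68% of the later calls. The change of the difference between the times was tested itself and called 937 genes (4.8%), 520 toward ΔMP (2.66%) and 417 toward AXR3-1 (2.14%), with 8.07% and 9.02% of all genes past the adjusted p alone. Among those called at 90 min the difference grew past the adjusted p in 72 and 48 and shrank in 26 and 19.

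GA2OX8 went from a difference of 3.85 to 7.90, at 28.95 TPM in ΔMP and 0.116 TPM in AXR3-1 at 180 min (mean, n = 3), and the change of 4.06 passed (adjusted p = 1.44e-06). EXPA17 went from −1.40 to −7.44, with means of 1.70 TPM in ΔMP and 279.6 TPM in AXR3-1 (change of −6.04, adjusted p = 7.43e-22). WAG2 had 2.52 and 2.48 (change of −0.03, adjusted p = 0.97). All 14 named induced genes on each side were called at 180 min in their direction, and the difference had grown past the test in 9 of those higher in ΔMP and 10 of those higher in AXR3-1.

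The median of 20 of the 25 gene lists was farther from 0 at 180 min than at 90 min, whatever its direction. Among the 20 are lists whose median changed direction. These were GA synthesis (−0.26 and 0.75), ACC synthesis (−0.215 and 0.56), MP targets (−0.04 and 0.18) and GA signaling (0.005 and −0.08). Others stayed near 0, as the receptors (0.0002 and 0.01) and the endodermis genes (−0.0015 and −0.02) did. Of the 27 Aux/IAA genes 19 were higher in ΔMP and 2 in AXR3-1 at 180 min, with a median of 1.06, where 15.6% and 15% of all genes passed the adjusted p in these directions. The median of the GH3 genes went from 0.67 to 1.74 and that of the 4 GA 2-oxidases from 0.75 to 2.46, with 3 called higher in ΔMP and 1 (GA2OX2, −1.62) in AXR3-1. Of 9 root hair genes 8 were higher in ΔMP and 1 in AXR3-1 at 180 min, against 4 and 1 at 90 min. The summed TPM of the root hair genes no longer overlapped, at 530.1 to 553.5 against 95.9 to 122.9. In 5 lists the median was nearer 0 at 180 min, among them the green tissue genes (0.57 and 0.02), the low oxygen genes (0.28 and 0.02) and the auxin transport genes (0.13 and 0.09), and that of the clock genes was 0.50 at both times.

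**Figure D4:**
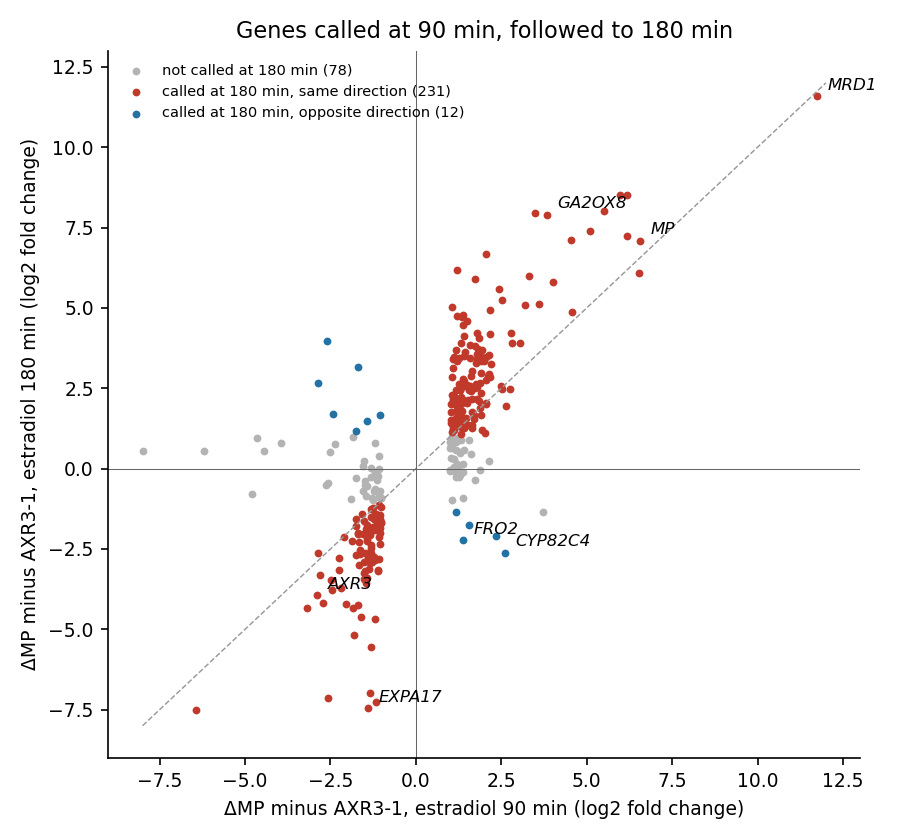
Log2 fold change of ΔMP over AXR3-1 at 180 min against that at 90 min for the 321 genes called at 90 min, with equal differences on the dashed line. The 231 red points were called in the same direction at both times, and the 12 blue points, FRO2 and CYP82C4 among them, in opposite directions.

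Of the genes called at 90 min, 5 higher in ΔMP and 7 higher in AXR3-1 were called in the opposite direction at 180 min. The 5 were IRT1, FRO2, CYP82C4, PIRL8 and AT4G15990, and the first 3 of them belong to the iron deficiency response, IRT1 as the iron importer of the root surface, FRO2 as its ferric reductase and CYP82C4 in coumarin synthesis. They were singled out after their values were seen. IRT1 was at 54.4, 42.1 and 72.5 TPM in ΔMP and at 14.5, 25.3 and 19.1 TPM in AXR3-1 at 90 min (1.55 ± 0.31, adjusted p = 4.27e-04), without overlap, and at 20.5 to 52.8 against 89.7 to 136.7 TPM at 180 min (−1.76 ± 0.28, adjusted p = 5.18e-06). The change between the times was −3.31 for IRT1, −3.59 for FRO2 and −5.23 for CYP82C4. Mean IRT1 in the mock, at 90 and at 180 min was 56.9, 56.3 and 34.9 TPM in ΔMP. In the same order it was 47.65, 19.6 and 115.4 TPM in AXR3-1 and 90.7, 66.9 and 110.2 TPM in Col-0. Mean FRO2 was 9.77, 10.6 and 4.25 TPM in ΔMP, 7.57, 4.16 and 18.8 TPM in AXR3-1 and 14.6, 10.45 and 17.8 TPM in Col-0.

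FRO2 was at 7.04 to 14.4 against 3.00 to 5.67 TPM at 90 min (1.37 ± 0.31, adjusted p = 0.00203) and CYP82C4 at 1.73 to 5.81 against 0.253 to 1.07 TPM (2.61 ± 0.61, adjusted p = 0.0026). None of the 3 passed in the induced difference (adjusted p = 0.078 for IRT1, 0.24 for FRO2 and 0.285 for CYP82C4). The genes varied within Col-0 as well, where IRT1 ranged from 57.8 to 73.0 TPM at 90 min and from 63.6 to 146.7 TPM at 180 min. NAS2, which makes the metal chelator nicotianamine, was higher in ΔMP at 90 min by 1.74 ± 0.28 (adjusted p = 2.63e-05) and in the mock by 1.304, and had −0.34 at 180 min (adjusted p = 0.37).

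**Figure D5:**
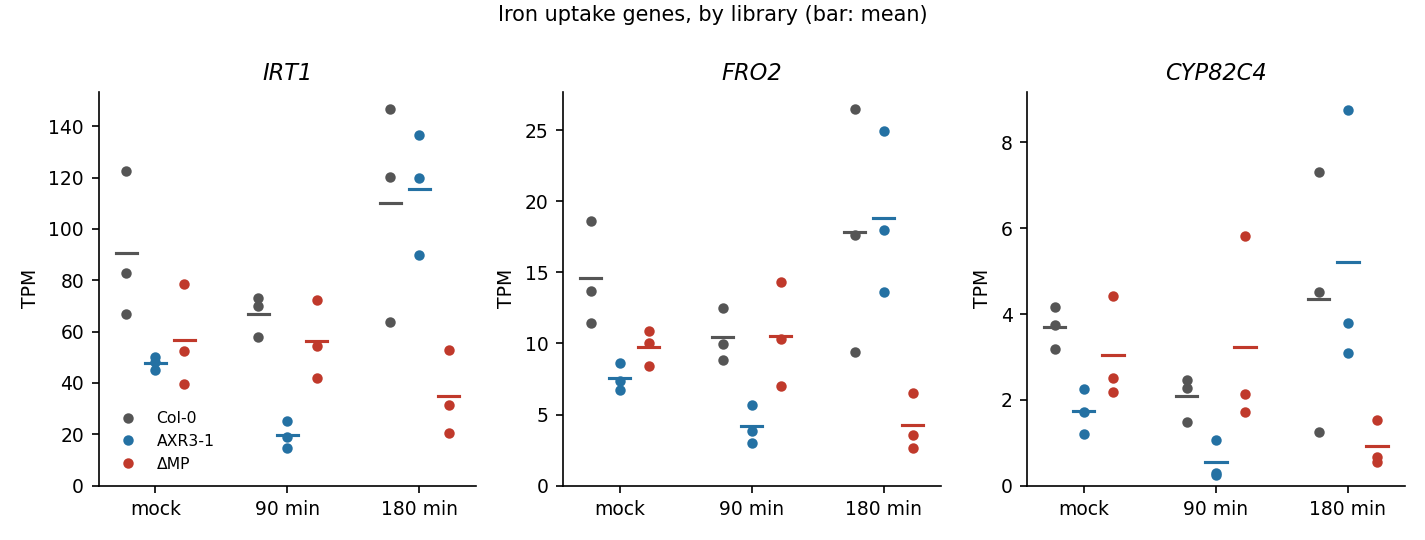
TPM of IRT1, FRO2 and CYP82C4 in each library of Col-0 (grey), AXR3-1 (blue) and ΔMP (red) in the mock and after 90 and 180 min of estradiol, with the mean as a bar. At 90 min every ΔMP library lies above every AXR3-1 library, and at 180 min every AXR3-1 library lies above every ΔMP library, while the Col-0 libraries spread widely at 180 min.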

How the data were processed

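Per the labels and the methods, the authors ran Salmon 1.3.0 with bias correction on the coding sequences of TAIR10. Reads were trimmed and corrected before that, and the sources differ on the tool (Trim Galore after Rcorrector, or Trimmomatic). The deposited estimated counts give read pairs assigned to each transcript. The deposited TPM scale them for effective length, which was used in 1 alternative, and to one total in all libraries. Reads outside coding sequence were not counted.

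Here the estimated counts were added up by locus and rounded. The main test was edgeR 4.0.16 (quasi-likelihood, TMM, prior count 0.125, Benjamini-Hochberg) under R 4.3.3, and groups shared the spread estimated over 27 libraries. filterByExpr kept 19530 of 27313 genes. In counts simulated for 19530 genes, the line difference at 90 min recovered 94% of 100 genes changed 2-fold and 100% of 100 changed 4-fold. Recovery asked for the adjusted p and the right direction, without the log2 threshold of a call. The median size was 1.01 on the log2 scale among the 2-fold genes. The induced difference recovered 88% and 98%. Of the unchanged genes, 12 passed the adjusted p in the line difference and 18 in the induced difference. Promoters came from RefSeq's TAIR10.1, where 97.32% of 26636 loci had the coding length of the files. Listed loci without an annotated name (3) were left out. The members, lists, windows and tests were chosen with earlier results of these data known.

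Named were MP and AXR3, the 15 largest called differences in each direction with an induced difference in the same direction, 2 TPM in the higher line, a symbol and separated libraries, up to 5 in each direction called in the mock too, and list members. Alternatives were DESeq2 1.42.0, no TMM, other filters, only the compared groups, limma 3.58.1 on log2 TPM with a pseudocount of 0.5 or 1, an effective length offset, thinning to 13634030 counts, the letter as a block, the adjusted p alone, and leaving out each library.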

Additional observations from a re-analysis of the deposited data

Results flagged for a closer look

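Results are given here whose line difference itself differed between conditions by a test of that difference. The change of each line from its own mock differed between the lines in 214 called genes at 90 min. The line difference differed between 90 and 180 min in 937 called genes. Among the named genes higher in ΔMP at 90 min, the log2 difference grew by 4.06 in GA2OX8, by 2.73 in CYP94C1 and by 2.41 in DGR1. It grew by 1.77 in IAA1, 1.62 in MYB50, 1.53 in UNE11, 1.37 in MDP40 and 1.06 in RSL4. Among those higher in AXR3-1 it changed by −6.04 in EXPA17, −2.53 in ACS7, −2.49 in AGP17 and −1.97 in HIPP20. Smaller changes were −1.90 in CYP84A4, −1.68 in IDL1, −1.24 in YUC9, −1.15 in OCT3, −1.11 in YUC8 and −1.06 in AXR3. The difference of NAS2, which was also called in the mock, changed by −2.08.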

How the results depend on the processing

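No named gene or count reversed under any alternative run. The count of genes called between the estradiol groups at 90 min was 321. It was 2422 at the adjusted p alone, 200 and 152 with limma and a pseudocount of 0.5 and 1, 208 with limma and a TPM filter, and 288 to 338 without single libraries. The induced difference gave 214, and 982 at the adjusted p alone, and 192 to 224 without single libraries. In the mock the count of 62 was 609 at the adjusted p alone, 37, 30 and 37 with the limma settings, and 39 to 74 without single libraries, the 39 without replicate C of the AXR3-1 mock. The line difference at 180 min, 1551, was 5973 at the adjusted p alone and 1522 to 1587 without single libraries. The change of the line difference from 90 to 180 min, 937, was 3337 and 863 to 951. Among the 4 groups of both lines at 90 min (estradiol and mock), same-lettered libraries correlated at r from −0.054 to 0.078 in their deviations from the group means. All 6 libraries were nearest to their own letter between AXR3-1 after estradiol and the ΔMP mock, and 2 to 4 of 6 in the other pairs of groups. The other groups were not checked, and the letter as a replicate block gave 320 calls at 90 min. Of 68 results of named genes 65 kept their side of the threshold under every alternative run. The exceptions were HB28, whose induced difference failed the adjusted p without replicate C of the AXR3-1 mock (2.95), MAPKKK19 and MRD1. MAPKKK19 had −0.96 with a pseudocount of 1, and the induced difference of MRD1 passed under DESeq2 (4.01), with no filter (4.71) and without replicate C of the AXR3-1 mock (5.30). Of 113 list entries past the adjusted p at 90 min, 29 lost it under at least 1 alternative, and 0 reversed. In each comparison 4 genes had no adjusted p under DESeq2. The 3 libraries in each group limit the precision, and genes near 0 in AXR3-1 have no more than a bound.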
